A study of Mus musculus with 2 samples.

Results

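Mature oligodendrocytes, the cells that wrap axons in myelin, were examined in a droplet single-cell RNA data set of the mouse dentate gyrus. They were chosen by transcript counts: a barcode was a member when M, its summed unique molecular identifiers (UMIs, one per captured transcript) of Mog, Ermn, Opalin and Mag, was at least 10 and exceeded K, the sum of Gpr17, Bmp4 and Enpp6. Mog, Ermn and Mag each had to be detected, and at most 2 UMIs were allowed of the microglial pair P2ry12 and Cx3cr1, the endothelial pair Cldn5 and Flt1, and the astrocyte pair Gjb6 and Agt. This gave 636 members among 16636 barcodes that held 1000 or more UMIs and 500 or more genes, with no more than 20% of UMIs mitochondrial. Library 1 held 290 of 8255 barcodes, 3.51% (95% Clopper-Pearson interval 3.13 to 3.93), and library 2 held 346 of 8381, 4.13% (3.71 to 4.58). All intervals here cover counting error only.

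The study compared conditional knockout mice, labelled cKO (Nestin-Cre Tg, Phf2flox/flox), with control mice, labelled wild type (Nestin-Cre Tg, Phf2+/+), at postnatal day 30. Both genotypes carried the Cre transgene, which the nestin regulatory sequence drives in neural stem and progenitor cells, so that neurons, astrocytes and oligodendrocytes arise from Cre-exposed progenitors. The labels give 4 mice per genotype and there was 1 library each, with the mice of a genotype not told apart. No label ties a library to a genotype. Values therefore stand side by side for libraries 1 and 2, and cKO was not compared with control.

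Oligodendrocytes arise from precursor cells (OPCs), which divide and bear the receptor Pdgfra. On leaving the cycle, precursors pass through a short premyelinating stage marked by Gpr17, Bmp4 and Enpp6. They then build myelin, a compacted membrane rich in cholesterol and galactolipid that is held together by a few abundant proteins, Mbp among them. Mature cells are coupled to astrocytes and to each other by gap junctions, store iron, and pass metabolites to the axons they wrap.

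Mobp, a structural myelin protein gene that the rule did not use, was detected in 100% of members of both libraries, at 4728 and 5223 CPM. It stood at 42.8 and 74.4 CPM in all other barcodes. Because the rule selected on other myelin genes, Mobp is not an independent check of the label. Members were deep cells, with a median of 23799.5 UMIs in library 1 and 21694 in library 2, and median mitochondrial shares of 6.38% and 7.16%. M ranged from 11 to 1111 in library 1, with a median of 196, and from 10 to 780 in library 2, with a median of 176. The 5 members nearest the threshold had M of 10, 11, 12, 16 and 16, and the 5 nearest barcodes outside it that met the other criteria had 8, 8, 7, 7 and 6. Only 11 members had M below 50. Of 728 barcodes with M of at least 10, 47 were left out for microglial, 11 for endothelial and 9 for astrocyte transcripts, 31 because K was not exceeded and 35 because Mog, Ermn or Mag was missing, with some meeting more than 1 of these criteria. The libraries shared 23 barcode sequences past the filters, none of them a member in both. Scrublet marked 17 members as doublets. The microglial, endothelial and astrocyte markers summed next were not capped by the rule, although 2 others of each type were. None of these markers was at 0 in members. Microglial Csf1r, C1qa and Tmem119 summed to 30.5 and 24.4 CPM in members against 4307 and 3041 CPM in all other barcodes. The 3 endothelial ones (Pecam1, Ly6c1 and Itm2a) summed to 11.7 and 10.4 CPM in members against 1456 and 1299.7 CPM, and the 4 astrocyte ones (Aldoc, Aqp4, Slc1a2 and Gja1) to 80.6 and 92.98 CPM against 2161 and 2417 CPM. No limit was set on the following types. The 6 neuroblast and granule neuron markers summed to 247 and 317 CPM in members against 756 and 755 CPM. The 3 erythroid ones summed to 1407 and 2130 CPM against 8867 and 4305 CPM. The 3 choroid plexus ones held 4.32 and 484 CPM against 633 and 31821.5 CPM. The 4 mural ones held 5.72 and 6.01 CPM against 1247 and 984 CPM. Fibroblast ones held 0 and 0.914 CPM against 44.3 and 61.5 CPM.

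Earlier stages of the lineage served for comparison. Premyelinating cells (K at least 5, Gpr17 detected, K above M and above Pdgfra plus C1ql1) numbered 28 and 38, and OPCs (Pdgfra and C1ql1 both detected, at least 5 UMIs together and above K, M at most 2) numbered 22 and 56. Both also passed the limits on microglial, endothelial and astrocyte genes, and a like limit on Col1a2, Dcn and Rgs5 of fibroblasts and mural cells. In summed counts, fewer cells with a transcript and less of it per cell cannot be told apart. Levels are given as CPM, counts per 1000000 UMIs, for the UMIs summed over a class in a library. Because a 3′ assay counts 1 tag per transcript, CPM does not grow with transcript length.

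Myelin protein genes, part of the choice of members, are described without a test. All of the 16 listed were detected in members, and together they took 11.8% of member UMIs in library 1 and 11.2% in library 2, against 3.17% and 2.61% in premyelinating cells, 0.407% and 0.348% in OPCs, and 0.716% and 0.702% in free RNA, which was measured in barcodes with fewer than 100 UMIs. Mbp, the basic protein that zips the membrane leaflets together, stood at 24.2 and 63.1 CPM in OPCs, 4325 and 3369 CPM in premyelinating cells and 4703 and 4675 CPM in mature cells. Cnp, a myelin-channel enzyme, likewise had 126 and 107 CPM, 3190.2 and 2834 CPM and 5411 and 5802 CPM at these 3 stages.

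Another set was close to 0 until the mature stage. Mal, a raft protein of myelin vesicles (chromosome 2, 127633226 to 127656695, minus strand, GRCm38), was the fourth most abundant non-mitochondrial transcript of members, with 12106 and 10176 CPM in mature cells against 6.59 and 8.40 CPM in premyelinating cells. Mobp had 4728 and 5223 CPM against 37.3 and 13.4 CPM. Ermn, an actin-binding protein of late oligodendrocytes (chromosome 2, 58045113 to 58052864, minus strand), had 2288 and 2077 CPM against 0 and 1.68 CPM, and Opalin, a membrane protein of the myelin sheath (chromosome 19, 41061710 to 41077113, minus strand), had 1276 and 1187 CPM against 4.39 and 0 CPM. These values separate the groups in both libraries, although for Ermn and Opalin the rule itself asked for it. Cldn11, the claudin of the radial myelin seams (chromosome 3, 31149920 to 31164324, plus strand), took a middle course at 4723 and 5069 CPM in mature against 1684 and 1088 CPM in premyelinating cells. Mag, an adhesion receptor facing the axon, had 2756 and 3257 CPM against 845 and 577 CPM, and Mog, on the outer face of the sheath, had 2161 and 2520.3 CPM against 204 and 104 CPM. Tspan2, a tetraspanin, had 2954 and 2868 CPM against 289.8 and 156 CPM. Cd9, another tetraspanin, ran the other way, with 671 and 586 CPM in mature against 4635 and 4839 CPM in premyelinating cells. The remaining 4 genes, Pllp, Plekhb1, Gpm6b and Omg, were higher in mature than in premyelinating cells of both libraries, with Pllp the closest at 621 and 709 CPM against 501 and 472 CPM.

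The 250 bases before the start of 4 of these genes are shown because 3 of them (Ermn, Opalin, Mal) appeared late together and the other (Cldn11) was already on at the premyelinating stage. Sequences are from RefSeq on GRCm38.p6, read 5′ to 3′ on the strand of the gene, and lie at chr2:58052865-58053114 (Ermn, minus), chr19:41077114-41077363 (Opalin, minus), chr2:127656696-127656945 (Mal, minus) and chr3:31149670-31149919 (Cldn11, plus). Capitals mark matches to the motifs searched.
Ermn: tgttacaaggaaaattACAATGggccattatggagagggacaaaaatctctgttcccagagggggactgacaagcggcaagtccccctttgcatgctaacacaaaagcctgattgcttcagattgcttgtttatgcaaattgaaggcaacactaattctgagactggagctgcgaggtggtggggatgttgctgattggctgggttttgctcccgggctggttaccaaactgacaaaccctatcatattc
Opalin: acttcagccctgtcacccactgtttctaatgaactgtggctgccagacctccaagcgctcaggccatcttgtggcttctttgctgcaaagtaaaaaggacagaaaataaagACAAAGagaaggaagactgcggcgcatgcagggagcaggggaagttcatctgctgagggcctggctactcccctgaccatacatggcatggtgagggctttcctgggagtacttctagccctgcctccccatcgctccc
Mal: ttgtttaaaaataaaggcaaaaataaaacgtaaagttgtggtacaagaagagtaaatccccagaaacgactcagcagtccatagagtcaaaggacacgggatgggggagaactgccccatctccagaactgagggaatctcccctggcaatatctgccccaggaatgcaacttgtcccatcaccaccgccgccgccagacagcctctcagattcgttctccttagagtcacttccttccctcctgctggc
Cldn11: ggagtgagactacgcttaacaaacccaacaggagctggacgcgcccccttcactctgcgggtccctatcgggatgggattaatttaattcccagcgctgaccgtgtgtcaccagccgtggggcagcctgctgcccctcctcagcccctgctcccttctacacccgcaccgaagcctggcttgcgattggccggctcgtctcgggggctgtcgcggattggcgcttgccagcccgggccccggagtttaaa
The search covered, on both strands, the MYRF core CTGGCAC or CTGGTAC, the SOX core ACAAAG or ACAATG, and the E-box forms CAGCTG and CATATG bound by Olig-type factors. Over 32851 promoter entries of 250 bases these letters were found in 4.19%, 1.83%, 16.5%, 10.7%, 13.0% and 3.46%. Ermn held ACAATG 234 bases before its start and Opalin held ACAAAG 139 bases before its start. The Mal and Cldn11 windows held none of the 6, which says only that these letters are not in these windows.

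**Figure D1:**
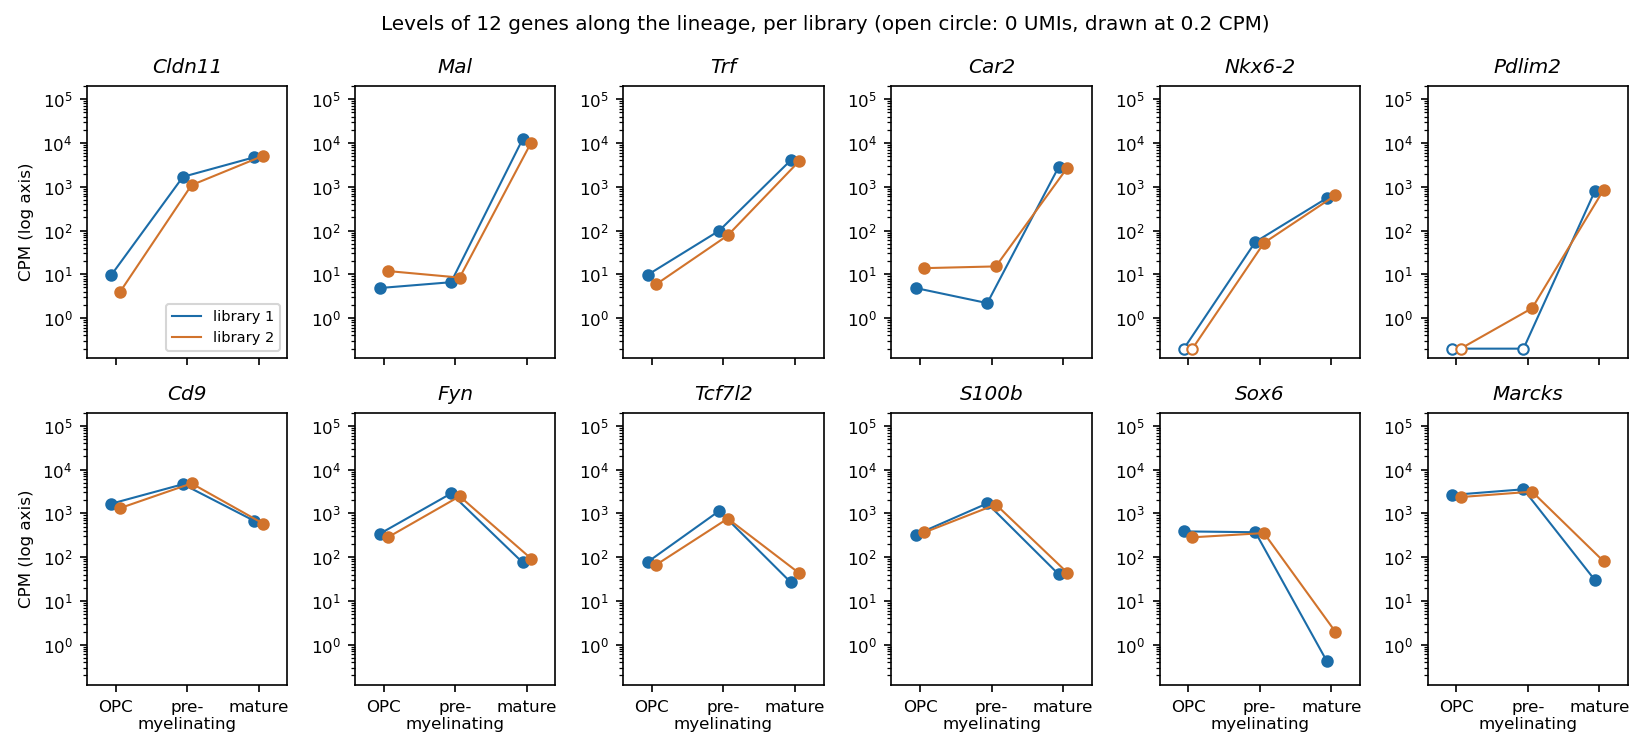
CPM (log axis) of 12 genes in OPCs, premyelinating cells and mature oligodendrocytes, 1 line per library, with open circles for 0 UMIs drawn at 0.2 CPM. Cldn11, Trf and Nkx6-2 climbed at each step, Mal, Car2 and Pdlim2 at the last step, and the 6 genes of the lower row were lowest in mature cells of both libraries.

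For the tests, counts summed per class and library were compared by the quasi-likelihood test of edgeR, blocking on library, and a gene was called at a Benjamini-Hochberg adjusted p below 0.05. Values are log2 fold changes, mature over the earlier stage, ± SE with n = 2 libraries per class. Against premyelinating cells, 2330 of 10882 genes were higher (21.4%) and 1998 lower (18.4%) in mature cells, 39.8% in either direction. Against OPCs, 2801 of 11512 were higher (24.3%) and 2633 lower (22.9%), 47.2% in either direction. DESeq2 called 1095 higher and 1105 lower against premyelinating cells, and 1388 and 1630 against OPCs. The test used trimmed-mean scaling. With plain total counts the median log2 fold change of all genes shifted down by 0.49 and 0.75, and 1430 genes were higher and 3737 lower against premyelinating cells, and 1250 and 4938 against OPCs. The p-values rest on 2 libraries, one of each genotype, and not on the spread between mice. Both comparisons use the same mature cells, and the gate selected on myelin transcripts, so genes that move with those 4 genes are not independent of it. On the scaled fold changes, every gene named below with a call against an earlier stage had the same sign in both libraries. On CPM without that scaling, Pcna and Cdkn1b did not keep 1 direction against premyelinating cells.

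Genes of the axon-glia junction and of gap junctions were mostly higher in mature cells. Of 16 adhesion, paranode and junction genes, all tested, 9 were higher and 4 lower against premyelinating cells (median log2 fold change 1.84), and 12 and 4 against OPCs (median log2 fold change 2.80), where the median of all genes was 0.06 and 0.05. Cntn2, the juxtaparanodal adhesion molecule that holds potassium channels in place, had 442 and 409.8 CPM in mature against 4.39 and 5.04 CPM in premyelinating cells, a log2 fold change of 6.95 ± 0.35 (adjusted p = 3.84e-13). Gjb1, the connexin 32 gene, had 219.6 and 284 CPM against 4.39 and 3.36 CPM, a log2 fold change of 6.54 ± 0.36 (adjusted p = 1.38e-12). For both genes the mature values lay above the premyelinating ones, with 2 libraries per class. The share of all tested genes that do so was not counted. Efnb3, an ephrin ligand that faces neurons, rose by 5.65 ± 0.30 against premyelinating cells and 5.82 ± 0.28 against OPCs. Nfasc, whose glial product anchors the paranode, was lower than in premyelinating cells (-1.07) and higher than in OPCs (3.49), at 633 and 731 CPM against 2488 and 1627 CPM in premyelinating cells. Nrcam, a nodal adhesion molecule, fell to 1.81 and 1.96 CPM in mature cells against 206 and 267 CPM in premyelinating cells, a log2 fold change of -6.46 ± 0.24.

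Genes for the galactolipids and sphingolipids of myelin were mostly higher in mature cells. Of 20 galactolipid and sphingolipid genes, 19 were tested: 12 were higher and 2 lower against premyelinating cells (median log2 fold change 1.04), and 17 and 2 against OPCs (median log2 fold change 2.41). Ugt8a, which makes galactosylceramide, had 1894 and 2040.4 CPM in mature cells against 199 and 162 CPM in OPCs, a log2 fold change of 4.22 ± 0.22. Fa2h, which hydroxylates the fatty acid of that lipid, had 799 and 767 CPM against 33.9 and 21.7 CPM (5.65 ± 0.26). Cers2, the ceramide synthase for very long chains, had 579 and 605 CPM in mature against 101 and 85.7 CPM in premyelinating cells (3.16 ± 0.23). Aspa, the aspartoacylase that releases acetate for lipid synthesis and whose loss causes Canavan disease, held 7760 UMIs in members against 1 UMI in premyelinating cells, a ratio of 549.6-fold (95% counting interval 98.6 to 21710.1). Fads1 and Fads2, the desaturases of polyunsaturated fatty acids, were the 2 lower genes in both comparisons, at -1.81 and -3.68 against premyelinating cells.

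Sterol synthesis genes were mostly above their OPC level, while 13 of 24 passed in neither direction against premyelinating cells. Against OPCs, 22 of 24 were higher and 0 lower (median log2 fold change 1.86), falling to 13 higher under total-count scaling. Hmgcs1, an early enzyme of the pathway, had 665 and 469.8 CPM in mature cells against 136 and 120.3 CPM in OPCs, a log2 fold change of 2.84 ± 0.20 (adjusted p = 5.77e-33). Idi1 (2.80 ± 0.22), Cyp51 (2.75 ± 0.21) and Msmo1 (2.39 ± 0.20), later enzymes, were higher as well. Against premyelinating cells 7 were higher and 4 lower (median log2 fold change 0.24). These were 29.2% and 16.7% of the list, beside 21.4% and 18.4% of all genes. Total-count scaling turned the counts to 2 higher and 8 lower. Acat2, which joins acetyl groups at the start, was among the lower genes (-1.20 ± 0.21). Sc5d (1.34 ± 0.23) and Ebp (1.20 ± 0.23), both later enzymes, were higher. Direction did not simply follow the order of steps. Hsd17b7, also a later enzyme, had 31.6 and 38.5 CPM in mature against 63.7 and 92.5 CPM in premyelinating cells.

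Transcription factors of the lineage were more often lower than higher in mature cells. Of 24 listed, 22 were tested against premyelinating cells, with 5 higher and 11 lower (median log2 fold change -1.02), or 15 lower under total-count scaling; all 24 were tested against OPCs, with 6 higher and 11 lower (median log2 fold change -0.77), or 17 lower under total-count scaling. Nkx6-2, a homeobox factor of myelinating cells (chromosome 7, 139579376 to 139582797, minus strand), had 0 UMIs in OPCs of both libraries, 54.9 and 52.1 CPM in premyelinating cells and 549.97 and 638 CPM in mature cells. It was higher than in premyelinating cells by 3.97 ± 0.25 (adjusted p = 1.04e-11) and at least 142-fold higher than in OPCs when 3 UMIs are taken as the floor of a class at 0. Myrf, the membrane-bound factor that drives myelin genes, had 322 and 329.7 CPM in mature cells against 4.85 and 5.92 CPM in OPCs (6.59 ± 0.33), and it was 0.98 above premyelinating cells. Tcf7l2, the Wnt effector of the premyelinating stage, fell to 26.8 and 42.96 CPM in mature against 1137 and 761 CPM in premyelinating cells (-4.27 ± 0.26). Sox6, which holds precursors back from differentiation, fell to 0.418 and 1.96 CPM in mature cells, against 371 and 355 CPM in premyelinating cells (-7.71 ± 0.30) and 388 and 284 CPM in OPCs (-7.29 ± 0.28). Sox4, of the SoxC group, fell by 4.24 on the log2 scale against premyelinating cells. Sox10, the factor of the whole lineage, passed the test in neither comparison, at 334 and 442 CPM in mature, 652 and 607 CPM in premyelinating cells and 562 and 469 CPM in OPCs. Olig2 was lower than in OPCs (-1.43), while Olig1 was higher than in premyelinating cells (1.56).

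Most genes of iron handling and carbonic anhydrases were higher in mature cells. Of 12 genes, 9 were tested against premyelinating cells, with 7 higher and 0 lower (median log2 fold change 4.21), and 10 against OPCs, with 7 higher and 1 lower (median log2 fold change 3.16). Under total-count scaling 2 genes were lower against premyelinating cells. Trf, the iron carrier transferrin, had 9.70 and 5.92 CPM in OPCs, 98.8 and 77.3 CPM in premyelinating cells and 4009 and 3862 CPM in mature cells, a log2 fold change of 5.98 ± 0.33 over premyelinating cells (adjusted p = 1.35e-12). Fth1, the ferritin heavy chain, ranked 3 among the most abundant non-mitochondrial transcripts of members at 16071 and 15742 CPM, against 681 and 839 CPM in premyelinating cells and 499 and 615 CPM in OPCs (5.58 ± 0.24). Its processed copies in the genome make the exact level uncertain. Ftl1, the light chain, did not follow it: 754 and 928 CPM in mature against 1429 and 1558 CPM in premyelinating cells (-0.34, not passed). Car2, the cytosolic carbonic anhydrase, had 2856 and 2731 CPM in mature against 2.20 and 15.1 CPM in premyelinating cells (8.70 ± 0.44). Car14, a membrane-bound form, rose by 6.45 ± 0.38 and Slc48a1, a haem transporter, by 4.21 ± 0.26. Cp, the ferroxidase ceruloplasmin, was the gene lower than in OPCs (-5.42), and Heph, the related hephaestin, had 0 UMIs in all 3 classes.

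Cytoskeleton genes were mostly higher in mature cells, with a smaller group lower. Of 24 cytoskeleton and RNA transport genes, 14 were higher and 6 lower against premyelinating cells (median log2 fold change 0.91), and 15 and 2 against OPCs (median log2 fold change 1.76), with 7 lower under total-count scaling. Tppp3, a tubulin-polymerising protein, had 211 and 222 CPM in mature cells and 0 UMIs in premyelinating cells, at least 75.9-fold higher, though DESeq2 gave an adjusted p of 0.0667. Anln, a septin-associated scaffold of myelin, held 4870 UMIs against 1, a ratio of 345-fold (95% counting interval 61.9 to 13626). Sept4, a septin of the innermost myelin layer, had 1979 and 1893 CPM in mature cells against 14.5 and 9.86 CPM in OPCs (8.13 ± 0.31). Gsn, the actin-severing gelsolin, had 1300.4 and 1614 CPM against 41.7 and 30.3 CPM in premyelinating cells (5.85 ± 0.31), and the stathmin Stmn4, which loosens microtubules, had 907 and 968 CPM against 0 and 15.1 CPM (7.30 ± 0.41). Fyn, the kinase that starts local Mbp translation, was at 75.8 and 92.5 CPM in mature against 2849.9 and 2459 CPM in premyelinating cells (-4.49). Marcks, an actin-linking kinase substrate, was at 29.7 and 80.4 CPM in mature cells against 2637 and 2359 CPM in OPCs (-4.89 ± 0.21), and 271 of its 616 UMIs in members of library 2 came from 1 cell. Tuba1a and Map1b, tubulin and a microtubule-binding protein of growing processes, were also lower than in premyelinating cells (-1.96 and -2.80).

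Metabolic genes were called at 28.6% higher and 21.4% lower against premyelinating cells, beside 21.4% and 18.4% of all genes. Of 15 axonal support genes, 14 were tested against premyelinating cells, with 4 higher and 3 lower, or 5 lower under total-count scaling (median log2 fold change 0.11), and all 15 against OPCs, with 6 higher and 7 lower (median log2 fold change -0.03). Glul, glutamine synthetase, had 1211 and 1403 CPM in mature against 48.3 and 53.8 CPM in premyelinating cells (5.17 ± 0.28). Slc16a1, the lactate carrier MCT1, had 49.8 and 49.5 CPM against 8.78 and 13.4 CPM (2.61 ± 0.34), and Slc2a1, a glucose carrier, had 74.7 and 72.6 CPM against 15.4 and 13.4 CPM (2.85 ± 0.29). Ldha, the pyruvate-reducing lactate dehydrogenase subunit, was lower than in premyelinating cells (-1.58) and OPCs (-1.53). Sirt2, a deacetylase carried into myelin, was lower than in premyelinating cells (-2.0 ± 0.25), at 677 and 649 CPM against 4097 and 3411 CPM, and higher than in OPCs (1.82 ± 0.18).

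Glutamate receptor genes of the precursor stage were low in members, while genes for potassium and chloride transport were higher than in OPCs. Of 20 channel and receptor genes, 18 were tested against premyelinating cells, with 6 higher and 7 lower (median log2 fold change -0.36), and 20 against OPCs, with 7 higher and 11 lower (median log2 fold change -2.26). Gria3, an AMPA receptor subunit, held 1.53 and 0.392 CPM in mature cells against 431 and 333 CPM in OPCs (-7.89 ± 0.27), and Gria2, another, held 40.2 and 27.7 CPM against 1653 and 1580.05 CPM (-4.85 ± 0.19). Ptprz1, a receptor phosphatase of precursors, held 4.74 and 9.66 CPM against 5017 and 4539 CPM (-8.65 ± 0.26). Atp1b3, a sodium pump subunit, was higher than in premyelinating cells (3.42 ± 0.24). Kcna1, a juxtaparanodal potassium channel, had 748 and 688 CPM in mature cells against 38.8 and 33.5 CPM in OPCs (5.06), and Slc12a2, the sodium-potassium-chloride cotransporter, had 1053 and 1137 CPM against 121 and 103 CPM (4.06).

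Among 20 growth and guidance genes, 18 were tested against premyelinating cells, with 9 higher and 5 lower (median log2 fold change 0.84), and 20 against OPCs, with 10 higher and 7 lower (median log2 fold change 1.14). Gpr37, an orphan receptor of the myelinating stage, had 523 and 524 CPM in mature against 15.4 and 8.40 CPM in premyelinating cells (6.0 ± 0.32). Lpar1, a lysophosphatidic acid receptor, had 714 and 569 CPM against 112 and 20.2 CPM (3.97 ± 0.32), with the 2 premyelinating libraries far apart. Fgfr2, the fibroblast growth factor receptor of mature cells, had 236 and 244 CPM against 15.4 and 10.1 CPM (4.76 ± 0.30). Sema4d, a semaphorin of the sheath, rose over OPCs (4.72 ± 0.26), and Sema5a, another semaphorin, fell by 3.98 on the log2 scale against premyelinating cells.

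**Figure D2:**
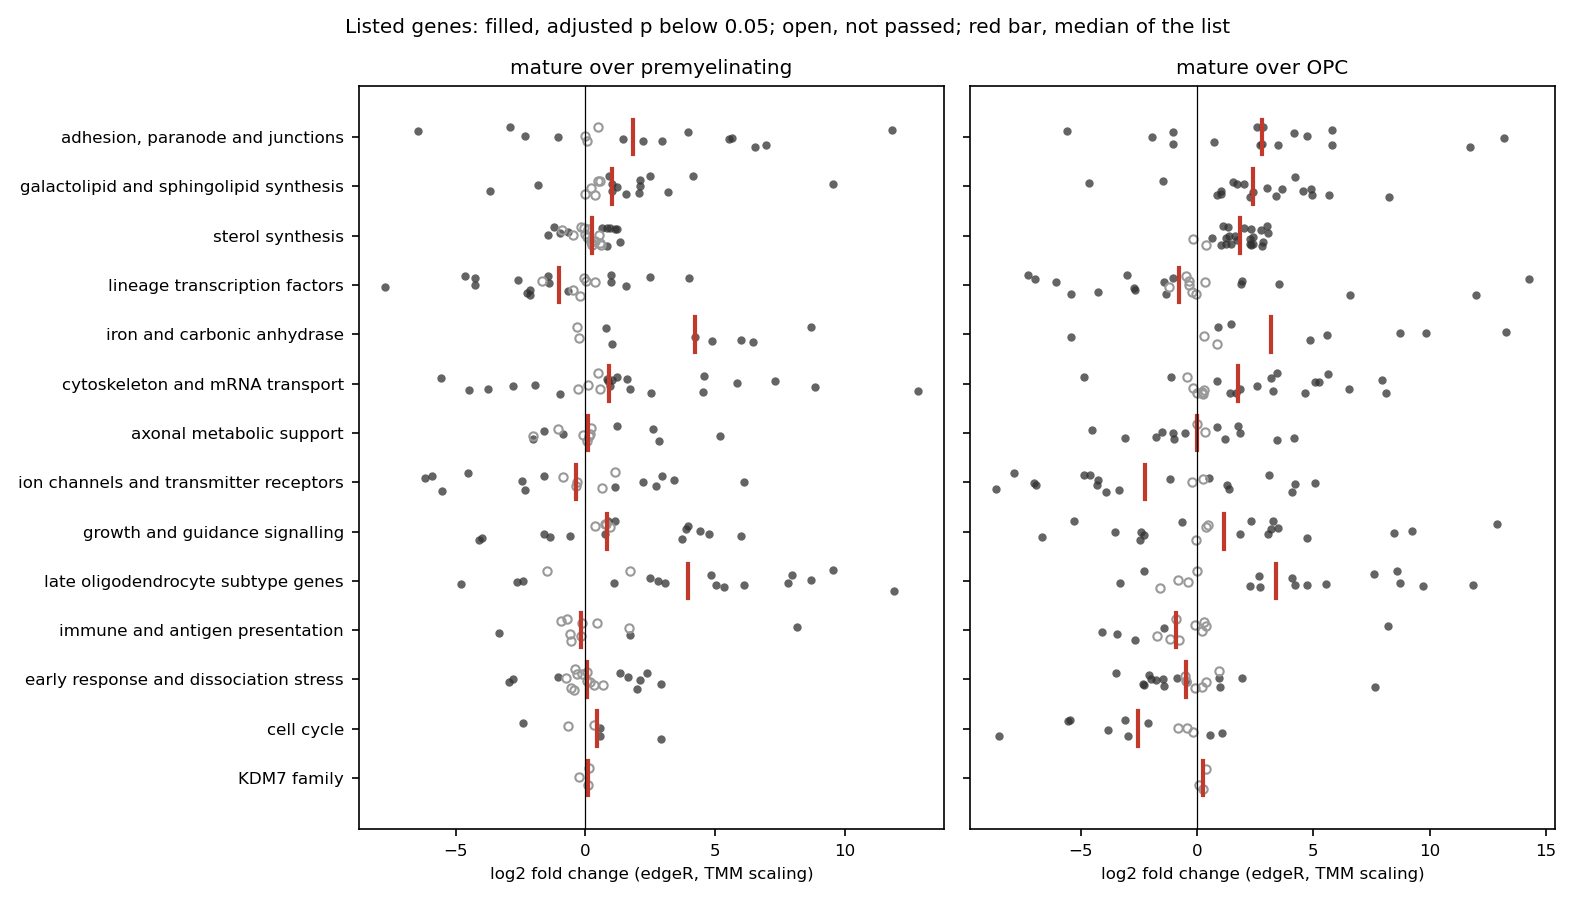
Log2 fold changes of listed genes, mature over premyelinating cells on the left and mature over OPCs on the right, with 1 row per list; filled points had an adjusted p below 0.05 and red bars are medians. The median of the sterol row was 0.24 over premyelinating cells and 1.86 over OPCs, while that of the iron and carbonic anhydrase row was 4.21 and 3.16.

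Immune genes were called at 18.2% higher and 9.09% lower against premyelinating cells, beside 21.4% and 18.4% of all genes, and at 7.69% higher and 30.8% lower against OPCs, beside 24.3% and 22.9%. Of 17 immune and antigen presentation genes, 11 were tested against premyelinating cells, with 2 higher and 1 lower, or 3 lower under total-count scaling (median log2 fold change -0.15), and 13 against OPCs, with 1 higher and 4 lower (median log2 fold change -0.93). B2m, the light chain of class I molecules, had 23.1 and 24.2 CPM in mature cells against 102 and 112 CPM in OPCs (-1.45 ± 0.26), and H2-D1, a class I heavy chain, had 8.64 and 9.14 CPM against 102 and 92.7 CPM (-2.69 ± 0.31). All other barcodes, among them many microglia, held 838 and 685 CPM of B2m. Il12rb1, an interleukin 12 receptor subunit, had 126 UMIs in members and none in the earlier stages, at least 2.97-fold higher than in premyelinating cells and at least 2.02-fold higher than in OPCs. DESeq2 gave adjusted p of 0.468 and 0.0601 for it. Stat3, a cytokine signal transducer, was higher than in premyelinating cells (1.71 ± 0.28).

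On the list of 20 genes of early response and dissociation, 6 were higher and 3 lower against premyelinating cells (median log2 fold change 0.06). These were 30% and 15% of the list, beside 21.4% and 18.4% of all genes. Under total-count scaling 2 were higher and 6 lower. Against OPCs 4 were higher and 10 lower (median log2 fold change -0.50), 20% and 50% beside 24.3% and 22.9% of all genes. Egr1, an immediate early factor, had 19.9 and 27.4 CPM in mature cells against 102 and 292 CPM in OPCs (-2.33 ± 0.22), Fos had 22.7 and 26.6 CPM against 169.7 and 162 CPM (-1.98 ± 0.22), and Jun had 179.6 and 189 CPM in members against 3884 and 2471 CPM in all other barcodes. Hsp90aa1, a chaperone, went up against both stages (1.98 ± 0.25 and 1.91 ± 0.19).

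Cell cycle genes were mostly lower than in OPCs. Of 14 cycle genes, 6 were tested against premyelinating cells, with 3 higher and 1 lower, or 1 higher and 2 lower under total-count scaling (median log2 fold change 0.44), and 12 against OPCs, with 2 higher and 7 lower, or 0 and 9 under total-count scaling (median log2 fold change -2.53). Ccnd1, the G1 cyclin of precursors, held 1.39 and 1.18 CPM in mature cells against 809.6 and 832 CPM in OPCs (-8.55 ± 0.24). Top2a, a topoisomerase of dividing cells, held 5.72 and 0.131 CPM against 441 and 13.8 CPM (-5.50 ± 0.36), with the OPCs of library 1 far above those of library 2. One member held 2 or more UMIs of Mki67, Top2a, Cdk1, Ccnb1 and Ccna2 together. The 3 genes higher than in premyelinating cells were Pcna (0.56), Cdkn1b (0.56) and Cdkn1a (2.92), of which DESeq2 gave an adjusted p of 0.428 for Pcna and 0.358 for Cdkn1b, and neither passed under total-count scaling.

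Phf2, the H3K9me2 demethylase gene targeted in the study (chromosome 13, 48801750 to 48871119, minus strand), was weakly expressed. Members held 87 UMIs in library 1, 12.1 CPM (exact Poisson interval 9.71 to 14.96), and 45 UMIs in library 2, 5.88 CPM (4.29 to 7.86). All other barcodes held 22.8 and 16.99 CPM and free RNA 17.9 and 13.9 CPM, above the members in both libraries. Premyelinating cells had 19.8 and 10.1 CPM and OPCs 14.5 and 7.89 CPM. The log2 fold change of mature cells was -0.24 ± 0.48 over premyelinating cells (adjusted p = 0.736) and 0.39 ± 0.63 over OPCs (adjusted p = 0.647), neither past the threshold. The related demethylase genes Phf8 and Kdm7a passed in neither comparison, and all 3 genes changed sign with total-count scaling in at least 1 of them. The sources do not name the exons that were floxed, and 3′ tags can persist when exons are lost, which means that Phf2 levels check no label.

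Outside the lists, the genes with the highest fitted change over premyelinating cells all had 0 UMIs there. Arap2, a GTPase-activating protein, had 306 and 299 CPM in mature cells, at least 106-fold higher; Prr5l, an mTORC2-associated protein, had 231 and 212 CPM, at least 77.3-fold. Pde8a, a cAMP phosphodiesterase, Pls1, an actin-bundling plastin, and Galnt6, a mucin-type glycosyltransferase, were at least 65.1-, 63.7- and 44.8-fold higher. DESeq2 gave adjusted p from 0.0505 to 0.100 for these 5. At the lower end, Neu4, a sialidase, had 0 and 1.31 CPM in mature against 452 and 528 CPM in premyelinating cells (-8.98 ± 0.36), Cacng4, an AMPA receptor auxiliary subunit, 1 UMI in members against 116, and Acan, the proteoglycan aggrecan, 0 against 54, at least 254-fold lower (DESeq2 adjusted p = 0.0595). Vxn, a promoter of neurogenesis, and Rassf10, a Ras-association protein, were at 0.139 and 0.392 CPM and 0 and 0.522 CPM in mature against 169 and 239 CPM and 187 and 97.5 CPM in premyelinating cells. Over OPCs, Pdlim2, an actin-associated PDZ and LIM protein, had 808 and 849 CPM, at least 197-fold higher, Ndrg1, a stress-responsive protein whose loss causes a demyelinating neuropathy, 905 and 697 CPM, at least 189.7-fold, and Slc24a2, a sodium-calcium exchanger, 402 and 364 CPM, at least 90.9-fold. Plpp4, a lipid phosphatase, Car8, a carbonic anhydrase-related protein without that activity, Zfp469 and Chrna4, a nicotinic receptor subunit, had 0 UMIs in members and were at least 589-, 464-, 409- and 284-fold lower than in OPCs, and Spry4, an inhibitor of receptor kinase signalling, had 1 UMI against 110.

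Members were compared among themselves after each of the 626 with at least 5000 UMIs was thinned at random to 5000. Mbp per cell was lowest 8, median 23 and highest 47 UMIs in library 1 and lowest 4, median 21.5 and highest 50 in library 2. Ptgds, which makes prostaglandin D2 and is typical of late oligodendrocytes (chromosome 2, 25466709 to 25470046, minus strand), was lowest 0, median 46.5 and highest 195 in library 1 and lowest 0, median 40 and highest 241 in library 2. Its variance over its mean was 34.98, rank 7 of 1550 genes with a mean of at least 0.5 UMIs, against 2.21 for Mbp and 2.26 for Cnp. Above it ranked 4 haemoglobin genes and Ttr, each carried by a few barcodes, and Malat1. Of 11443 Hbb-bs UMIs in members of library 2, 6172 came from 1 barcode, and of 3683 Ttr UMIs, 2102 came from 1.

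**Figure D3:**
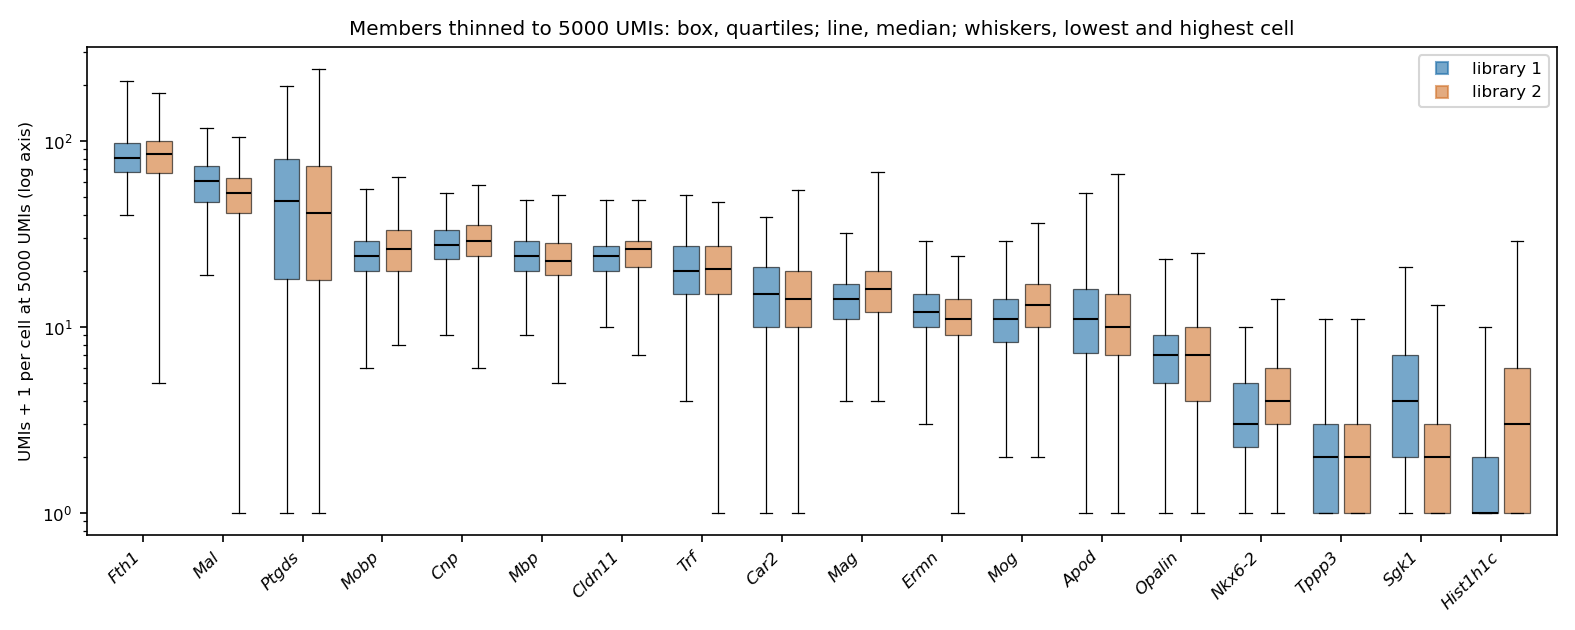
UMIs plus 1 per member after thinning to 5000 UMIs (log axis) for 18 genes in library 1 and library 2; boxes are quartiles, lines medians and whiskers the lowest and highest cell. Ptgds has medians of 46.5 and 40 UMIs and runs from 0 to 195 and 0 to 241, while Mbp runs from 8 to 47 and 4 to 50.

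Genes reported for late oligodendrocyte subtypes were found in uneven shares of members. Of 19 such genes outside the rule, 18 were tested: 13 were higher and 3 lower against premyelinating cells (median log2 fold change 3.94), and 12 and 2 against OPCs (median log2 fold change 3.38). With genes at 0 counts set to their bounds, the medians were 2.88 and 2.68. Apod, a lipid-binding secreted protein, had 2031 and 1975 CPM in mature against 10.98 and 11.8 CPM in premyelinating cells (7.94 ± 0.37), and Qdpr, which recycles tetrahydrobiopterin, had 1776 and 1453 CPM against 63.7 and 72.3 CPM (5.04 ± 0.29). S100b, a calcium-binding protein, fell to 40.3 and 44.1 CPM in mature cells, against 1693 and 1595 CPM (-4.79 ± 0.24). At 5000 UMIs, Serpinb1a, a protease inhibitor, was detected in 31.5% (26.1 to 37.2) of members of library 1 and 32.1% (27.1 to 37.3) of library 2, with exact intervals in parentheses. Enpp6, a choline phosphodiesterase of newly formed cells, was detected in 31.1% (25.8 to 36.8) and 38.2% (33.05 to 43.6). It is part of K, which M had to exceed, so its share in members is not independent of the rule. Il33, an alarmin of late oligodendrocytes, was detected in 9.79% (6.60 to 13.8) and 6.18% (3.86 to 9.29), and Klk6, a myelin-degrading protease, in 3.15% (1.45 to 5.89) and 3.24% (1.63 to 5.71). Before thinning these shares were 51.03% and 52.9%, 55.2% and 62.4%, 21.4% and 14.2%, and 6.21% and 6.94% in the same order. In barcodes with over 10 UMIs of microglial markers, a class for which these genes are not markers, thinned likewise from median depths of 8307 and 7630 UMIs, Il33 was found in 0.0700% and 0.183% and Serpinb1a in 0.210% and 0.0458%. Anxa5 and Hopx, by contrast, were found in 6.64% and 7.35% and in 0.699% and 4.12% of thinned members, below the 9.91% and 9.21% and the 4.31% and 6.83% of those barcodes, so no expression is read from these shares. Free RNA held 80.4 and 65.6 CPM of Anxa5 and 131 and 162 CPM of Hopx, against 17.6 and 13.3 CPM and 5.58 and 7.31 CPM in members.

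Few genes were called between members with and without Il33. It was present in 28 and 21 thinned members and absent from 258 and 319. Of 6859 genes tested with edgeR, 0 were higher (0%) and 6 lower (0.0875%) in Il33-detected members; at an unadjusted p below 0.05 the counts were 168 and 228, and DESeq2 called 0 and 2. The 6 were the haemoglobin genes Hba-a1, Hba-a2, Hbb-bs and Hbb-bt, the choroid plexus gene Ttr, and Adam15, a metalloprotease. Hbb-bs had 30 UMIs in Il33-detected members and 3722 in the others (-3.36 ± 0.19), and Adam15 had 1 against 172, 14.6-fold lower (95% counting interval 2.59 to 580.2). With DESeq2 the adjusted p was 0.133 for Hbb-bs and 0.9998 for Hbb-bt, Adam15 and Ttr, and Hba-a1 and Hba-a2 were still called. Ttr had opposite signs in the libraries, with log2 fold changes of 1.79 in library 1 and -2.04 in library 2. As given above, single barcodes carried much of the haemoglobin and Ttr counts; their part in these calls was not tested. Taking members with at least 2 Il33 UMIs, no gene was called. With 1 UMI as the marker, a member without Il33 may still express it, so these classes are mixed. On simulated data this comparison recovered 24% of 2-fold and 63% of 4-fold changes, with 4 false calls over 6844 genes. The small number of calls therefore does not show that the classes are alike.

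Members were also split by Ptgds into rich, middle and poor classes of nearly equal size. This split was chosen after its spread was seen, uses the same counts, and is described without a test. In library 1 the 95 members with most Ptgds held a median of 93 UMIs and the 96 with least a median of 9, and in library 2 the 115 and 114 members held 88 and 9. Depth before thinning was close (medians 22608 and 20078 UMIs in Ptgds-rich members, 23625.5 and 23668.5 in Ptgds-poor ones). Apoe, a lipid carrier, had 545 and 911 CPM in Ptgds-rich members against 148 and 119 CPM in Ptgds-poor members. Htra1, a secreted protease, had 75.8 and 81.7 CPM in Ptgds-rich members against 27.1 and 28.1 CPM in Ptgds-poor members. Cd63, a lysosomal tetraspanin, had 505 and 699 CPM in Ptgds-rich members against 244 and 272 CPM in Ptgds-poor members. Mt1, a metallothionein, had 728 and 1296 CPM in Ptgds-rich members against 308 and 575 CPM in Ptgds-poor members. Free RNA held 2241 and 1921 CPM of Mt1, above both classes, and its part in the Mt1 difference was not tested. Other genes were lower in Ptgds-rich members. Enpp6, limited by the rule through K, had 35.8 and 67.8 CPM in Ptgds-rich members against 233 and 228 CPM in Ptgds-poor members. S100b had 21.1 and 13.9 CPM in Ptgds-rich members against 110.4 and 92.98 CPM in Ptgds-poor members. Marcks had 8.42 and 12.2 CPM in Ptgds-rich members against 62.5 and 109 CPM in Ptgds-poor members. The same held for Serpinb1a (82.1 and 92.2 CPM in Ptgds-rich members against 204 and 188 CPM in Ptgds-poor members), Tppp3 (124 and 160 CPM in Ptgds-rich members against 308 and 323 CPM in Ptgds-poor members) and Hapln2, a perinodal link protein (80 and 97.4 CPM in Ptgds-rich members against 202 and 163 CPM in Ptgds-poor members). Of 24 sterol genes, 20 were lower in Ptgds-rich members in both libraries and 0 higher in both. At a mean of at least 40 CPM, where 34.4% of 3586 genes were lower and 21.7% higher in both, 13 of the 15 sterol genes were lower. All 24 had summed levels of 2417 and 1890.4 CPM in Ptgds-rich members against 3265 and 2998 CPM in Ptgds-poor ones. Of 16 myelin protein genes, 8 were lower and 5 higher in both libraries. Mal had 12499 and 10275 CPM in Ptgds-rich members against 11077 and 9568 CPM in Ptgds-poor members.

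**Figure D4:**
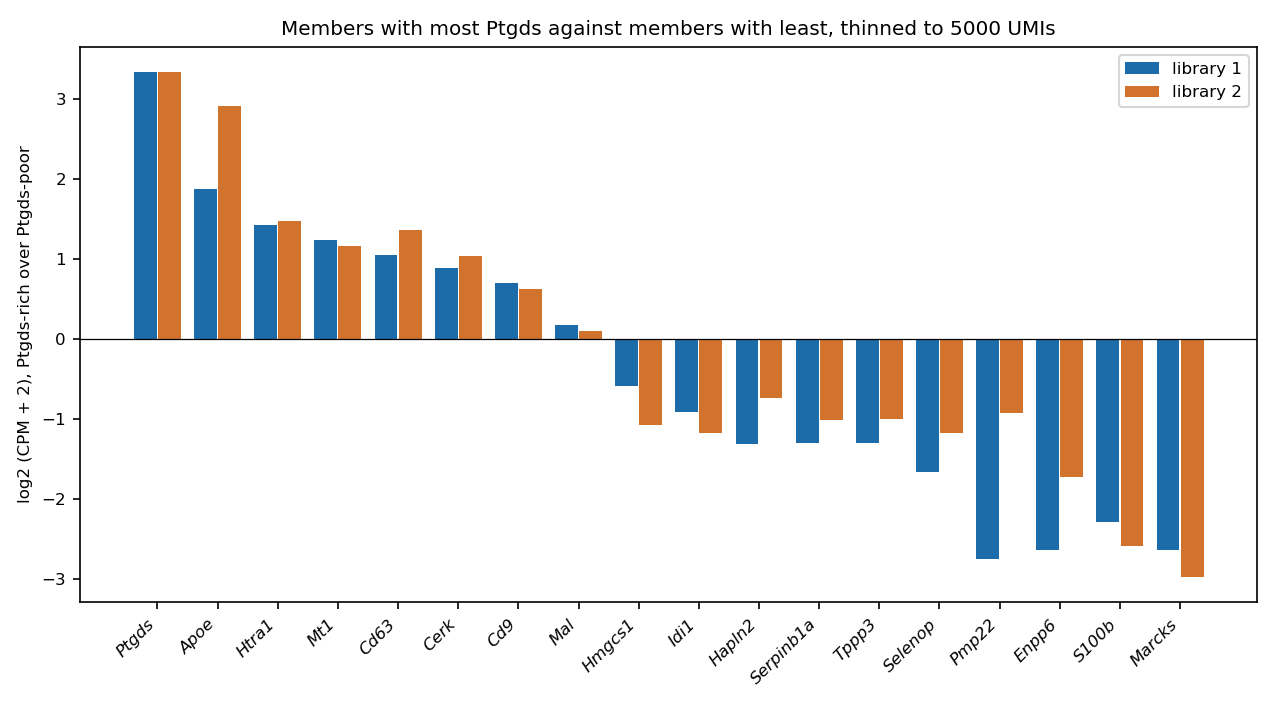
Log2 ratio of CPM plus 2 between Ptgds-rich and Ptgds-poor members, per library, for 18 genes. Apoe, Htra1, Mt1 and Cd63 stand above 0 and Enpp6, S100b and Marcks below it in both libraries, while Mal stays close to 0.

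The 2 libraries of members had similar levels of the main myelin genes. With 1 library per genotype there is no test, and genes were named by size: a CPM ratio of at least 2, at least 100 UMIs and exact Poisson intervals apart. Of 8412 genes with 100 UMIs, 17 were higher in library 1 (0.202%) and 36 in library 2 (0.428%). Mbp had 4703 CPM in library 1 and 4675 CPM in library 2, and Ptgds had a ratio of 1.11 (library 1 over library 2). Single barcodes held much of some of the largest ratios: 207 of 224 Nrgn UMIs in library 1 and 129 of 131 Ifit3 UMIs in library 2 were in 1 member. The member with most held 143 of 343 Meg3, 64 of 132 Ndnf and 62 of 166 Snhg11 UMIs in library 1, where 8, 21 and 27 members had any, and all members of library 2 together held 18, 10 and 40. Ddx3y and Eif2s3y, on the Y chromosome, had 385 and 210 UMIs in library 2 and 0 in library 1. Xist, transcribed from the inactive X chromosome, had 709.7 CPM in library 1 and 554 CPM in library 2 and was detected in 282 of 290 and 221 of 346 members. By these genes the sex make-up of the libraries differed, and it cannot be told apart from the other differences between them. Ttr had 4.32 CPM in library 1 and 481 CPM in library 2, beside free RNA of 2041 and 20000 CPM. Hbb-bt had 68.6 CPM in library 1 and 329 CPM in library 2, beside free RNA of 4539 and 2340 CPM. It was detected in 95 members of library 1 and 60 of library 2. The member with most held 282 of 492 Hbb-bt UMIs in library 1 and 1773 of 2522 in library 2. The part of free RNA in Ttr and Hbb-bt was not tested.

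Sgk1, a kinase induced by glucocorticoids (chromosome 10, 21882184 to 21999903, plus strand), had 768 CPM in library 1 and 258 CPM in library 2, a ratio of 2.97, and was detected in 285 of 290 and 301 of 346 members. All other barcodes held 343 and 213 CPM. Premyelinating cells held 536 and 536 CPM, with no such gap. Zfhx4, a zinc finger homeobox gene, had 22.2 CPM in library 1 and 7.31 CPM in library 2, Nfkbia, the inhibitor of NF-kB, 63.99 CPM in library 1 and 25.9 CPM in library 2, Cdkn1a, a cycle inhibitor, 32.6 CPM in library 1 and 11.2 CPM in library 2, and Hspa1b, an inducible heat shock gene, 10.7 CPM in library 1 and 4.18 CPM in library 2. All other barcodes held 727 and 528 CPM of Nfkbia, 337 and 169 CPM of Cdkn1a and 116 and 32.4 CPM of Hspa1b, and free RNA 402 and 357 CPM, 176 and 142 CPM and 73.5 and 32.8 CPM, all above the members. The part of free RNA in these 3 was not tested. Phf2 was also among the 17, with a ratio of 2.06. Of 11 glucocorticoid-responsive genes, a list chosen after Sgk1 was seen, 10 were higher in library 1 at any ratio, as were 50.9% of the 8412 genes. The list includes Sgk1, Nfkbia and Cdkn1a, which the size rule had already selected as higher in library 1, so their direction was fixed beforehand. The 11 had a sum of 1726 CPM in library 1 and 907 CPM in library 2. Sgk1 made up most of that gap, and Tsc22d3 and Ddit4, common targets, had ratios of 1.03 and 0.999. In all other barcodes the same list summed to 2339 and 1556 CPM.

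On the side of library 2, 4 linker histones met the size rule. Hist1h1c, a linker histone gene, had 170.2 CPM in library 1 and 598 CPM in library 2, a ratio of 3.51 (library 2 over library 1). It was detected in 232 of 290 and 296 of 346 members. H1f0, a linker histone of terminally differentiated cells, had 110.4 CPM in library 1 and 268 CPM in library 2. H1fx had 20.8 CPM in library 1 and 55.2 CPM in library 2, and Hist1h1e 36.9 CPM in library 1 and 80.05 CPM in library 2. Of 7 linker histones, a list chosen after these values were seen, 4 were higher in library 2 at any ratio. They are the 4 that the size rule had already selected, so their direction was fixed beforehand. The other 3, all under 4 CPM, were higher in library 1. Of the 8412 genes, 49.1% were higher in library 2. The 7 had sums of 345 CPM in library 1 and 1004 CPM in library 2 for members and of 444 and 531 CPM for all other barcodes. Hist1h1c made up most of the gap in members. Rbm3, a cold-inducible RNA-binding protein, had 40.99 CPM in library 1 and 131 CPM in library 2, Srsf3, a splicing factor, 101 CPM in library 1 and 214 CPM in library 2, and Bhlhe41, a clock repressor, 19.9 CPM in library 1 and 54.1 CPM in library 2. In premyelinating cells Rbm3 held 239 and 269 CPM and Hist1h1c 48.3 and 21.9 CPM.

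**Figure D5:**
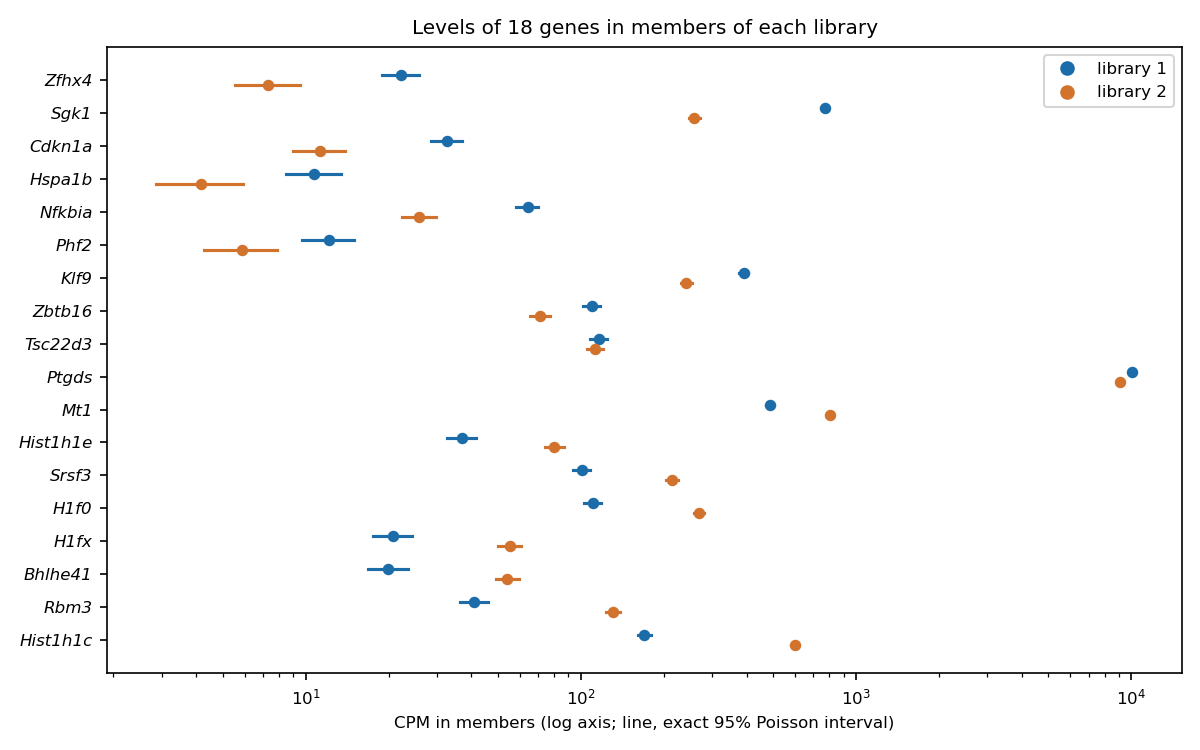
CPM (log axis) of 18 genes in members of library 1 and library 2, with exact 95% Poisson intervals as lines where they exceed the point. Ptgds and Tsc22d3 lie close together in the 2 libraries, while Sgk1 (768 and 258 CPM) and Nfkbia lie higher in library 1 and Hist1h1c (170.2 and 598 CPM), H1f0 and Rbm3 in library 2.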

How the data were processed

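RNA of dentate gyrus cells was counted by a droplet 3′ assay. The authors deposited raw UMI counts of 32285 genes in 1 unfiltered matrix; Cell Ranger 4.0.0, Scanpy 1.7.0 and mm10 appear in the submitters' processing notes. Barcode suffixes gave the 2 libraries, of 102897659 and 107266420 UMIs, and no source used here ties a suffix to a genotype. Barcodes were kept and classed as stated in the report, in scanpy 1.11.5. Counts were summed per class and library and tested with edgeR 4.0.16 (quasi-likelihood, TMM scaling, library as block, Benjamini-Hochberg adjustment) in R 4.3.3, with rule genes left out of the counts of calls. DESeq2 1.42.0, other scalings, filters and gates were alternatives. With 1 residual degree of freedom the precision rests on sharing spread between genes. On simulated data the edgeR step recovered 32% of 2-fold and 78% of 4-fold changes against premyelinating cells, and 14% and 60% against OPCs. Between Il33 classes it recovered 24% and 63%. Scrublet marked 226 and 252 barcodes, which were kept in the main values.

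Members and gene lists were chosen with earlier results of these data known. Named genes were, per list and comparison, up to 4 with the smallest adjusted p and, per comparison, the 6 highest and 6 lowest past the threshold with at least 50 CPM in the higher class; the myelin list is given whole, and up to 8 genes per direction were named between libraries. Further genes of the lists, and of the library differences, were chosen after their values were seen.

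Some genes are not reported here.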

Additional observations from a re-analysis of the deposited data

Results flagged for a closer look

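Barcodes outside the members also held the myelin genes of the rule. With M of at least 10, 47 barcodes were left out for more than 2 UMIs of P2ry12 and Cx3cr1, the microglial pair, and 14 barcodes that met the other member criteria were left out for a mitochondrial share above 20%. In free RNA, the 16 myelin protein genes summed to 7159 CPM in library 1 and 7022 CPM in library 2. What these barcodes are, and how far free RNA adds to the members' levels, was not tested.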

How the results depend on the processing

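No paired analysis was possible because both samples, one of each genotype, carry only replicate 1. The class comparisons had library as a block: without it, 4258 of 4328 calls against premyelinating cells and 5281 of 5434 against OPCs were kept. With 1 library there is no residual spread, so values without either library are ratios with no test. Against premyelinating cells, genes higher and lower were 1095 and 1105 with DESeq2 and 1430 and 3737 under total-count scaling, an alternative chosen after seeing the data; against OPCs they were 1388 and 1630, and 1250 and 4938. Of 4328 calls against premyelinating cells DESeq2 kept 2198, and of 5434 against OPCs it kept 3018. Between Il33 classes, 2 genes were higher at a mitochondrial limit of 10% and 1 without barcodes marked by Scrublet; 2 were lower with DESeq2, 3 without the library block and 0 at 2 or more Il33 UMIs. Members were 4.64% of library 2 at the 10% limit. At 3000 UMIs, Klk6 was detected in 1.45% and Hopx in 1.74% of members of library 2, Serpinb1a in 26.7%, and Enpp6 in 20.6% and 23.8% of libraries 1 and 2. Genes higher in library 1 numbered 3 after thinning and 71 at a ratio of 1.5, and in library 2 they numbered 13 and 119. Under total-count scaling, log2 fold changes turned to -0.40 for Phf8 and -0.35 for Kdm7a against premyelinating cells, and to -0.36 for Phf2, -0.48 for Phf8 and -0.65 for Kdm7a against OPCs; Kdm7a was -0.0091 without cycling barcodes. Thinning turned the log2 library ratios of Pcp4 to -0.64 and Bace2 to 0.12. The cause was not tested. The 66 premyelinating cells and 78 OPCs limit the depth of the comparison classes.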
